A study of Mus musculus with 32 samples.

Results

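ETR-tKO ESCs lack *Etv5*, *Rbpj* and *Tcf7l1* (the gene for TCF3), and were profiled after culture to passage 5 in N2B27, a serum-free medium without inhibitors or LIF. They were compared with RGd2 ESCs, their parental line, 72 h after transfer from 2i to the same medium (RGd2 N72h). Both groups are therefore in N2B27 alone, and the comparison asks how mutant cells that keep growing there differ from parental cells that have left the ESC state. The groups were chosen by their labels and hold 6 of the 32 libraries in the series, 3 in each group. RNA was depleted of ribosomal transcripts, given ERCC spike-ins and sequenced from strand-specific libraries. The whole series compares single, double and triple mutants of these factors with RGd2 cells in 2i, in CHIRON or after 2i withdrawal.

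RGd2 cells carry a Rex1::GFPd2 reporter knocked into the *Zfp42* locus, and all 6 libraries share this allele. The ETR-tKO libraries are 3 clonal lines. Line 13, (ETc1)Rc53, was made from an *Etv5*/Tcf3 mutant line, and lines 14, (Tc1)ERc2, and 15, (Tc1)ERc10, were both made from the *Tcf3* mutant line Tc1. Of the RGd2 N72h libraries, 7 and 8 are of the parental line and 9 is of a clone derived from it. Genotype, time in N2B27 and number of passages without 2i differ together between the groups, so their parts in any difference cannot be told apart. RGd2 cells at passage 5 in 2i (2ip5) and 16 h after 2i withdrawal (N16h), 3 libraries each, are given as reference levels without a test. 2i holds inhibitors of MEK and GSK3.

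Naive ESCs correspond to the epiblast before implantation and rely on a circuit of transcription factors that includes NANOG, ESRRB, TFCP2L1 and the Kruppel-like factors. When 2i is withdrawn, ERK signalling and TCF3 act on this circuit, and cells move to the formative state, in which POU3F1, OTX2 and the de novo DNA methyltransferases are expressed. TCF3 is a repressor of the TCF/LEF family that targets naive factor genes and is relieved by beta-catenin. ETV5 is an ETS factor of the PEA3 group, which acts downstream of FGF and ERK. RBPJ is the DNA-binding partner of activated Notch receptors and recruits repressors when Notch is inactive.

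Each gene had been mutated with 2 Cas9 guides. Their target sites are shown because they place the lesions within the genes whose counts follow. The 20-base target is in lower case and the PAM in capitals, 5′ to 3′, with the position of the target in GRCm38 and its strand.
Rbpj exon 5, chr5:53645980-53645999 (-): tgacctttatccgcttgctgAGG
Rbpj exon 7, chr5:53649718-53649737 (-): gcttgacagtctgcccgtaaTGG
Etv5 exon 8, chr16:22401804-22401823 (-): cgcagctccgccaccccttcAGG
Etv5 exon 9, chr16:22399336-22399355 (+): gaaatacccgcctctcatgtAGG
Tcf7l1 exon 1, chr6:72788844-72788863 (+): tcagctcgtcgttcgctccgAGG
Tcf7l1 exon 3, chr6:72788228-72788247 (+): gagacaggggtccgttggagAGG
All 6 targets fall within a single coding exon of the annotation, and the exon numbers are those of the study. Exons outside a lesion are still counted, so a gene count does not show whether protein is made.

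Levels are given as FPKM, computed from the gene counts and gene lengths, for ETR-tKO lines 13, 14 and 15 in that order and then for RGd2 N72h libraries 7, 8 and 9. Changes are log2 fold changes of ETR-tKO over RGd2 N72h ± SE on the scale of the spike-ins, with adjusted p-values from edgeR. ETR-tKO libraries held more gene counts per spike-in, so a fold change lies on average 0.18 on the log2 scale (1.13-fold) above the ratio of FPKM. A gene was called when its adjusted p was below 0.05 and its mean FPKM was at least 1 in either group.

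The libraries held from 16037731 to 41560347 counts on genes. Spike-ins took 1.25% ± 0.0543 (SD, n = 3) of counts in ETR-tKO and 1.41% ± 0.0835 in RGd2 N72h (exact permutation p = 0.1, two-sided, the smallest possible for 3 against 3). Mitochondrial transcripts took 17.4% ± 1.09 of gene counts in ETR-tKO and 13.5% ± 0.317 in RGd2 N72h, again at the smallest possible p. Replicates differed by more than counting noise, with a chi-square per gene of 4.199 to 29.57, and the larger values in ETR-tKO were those of line 13 against the others. In bulk RNA, fewer cells of a type and less RNA per cell cannot be told apart.

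The 3 targeted genes were each lower in ETR-tKO than in RGd2 N72h. *Tcf7l1* stood at 0.294, 1.1 and 0.985 FPKM in the mutant lines and at 5.8, 6.5 and 7.14 in the parental libraries, a change of -2.88 ± 0.24 (adjusted p = 4.14e-13). *Etv5* stood at 24.6, 9.76 and 16.3 against 95.8, 88.5 and 94.3 (-2.29 ± 0.15, adjusted p = 6.23e-16). The smallest difference was in *Rbpj*, at 4.85, 6.44 and 6.67 against 10.4, 10.1 and 10.1 (-0.58 ± 0.20, adjusted p = 0.0173). No targeted gene had overlapping FPKM values between the groups, but the *Rbpj* call was lost with DESeq2 (adjusted p = 0.0594) and without line 13 (-0.41, adjusted p = 0.123). *Rbpj* averaged 40.5 FPKM in RGd2 N16h, so its parental level at 72 h was itself below that at 16 h.

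Differences reached most expressed genes. Among the 12338 genes tested with a mean FPKM of at least 1, 4381 (35.5%) were called higher and 2909 (23.6%) lower in ETR-tKO, so that 59.1% were called in either direction. The FPKM-filtered median change was 0.11. Changes of at least 4-fold numbered 701 higher and 466 lower genes. The excess of higher calls depended on the spike-ins: scaling by the gene counts themselves (median of ratios) moved the median by -0.12 and gave 4029 higher and 4169 lower genes, and TMM gave 4210 and 3906. In 67.2% of the 12338 genes, the spike-in-normalised counts of the groups did not overlap, and a count of calls in a gene list below is to be read against these shares.

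**Figure D1:**
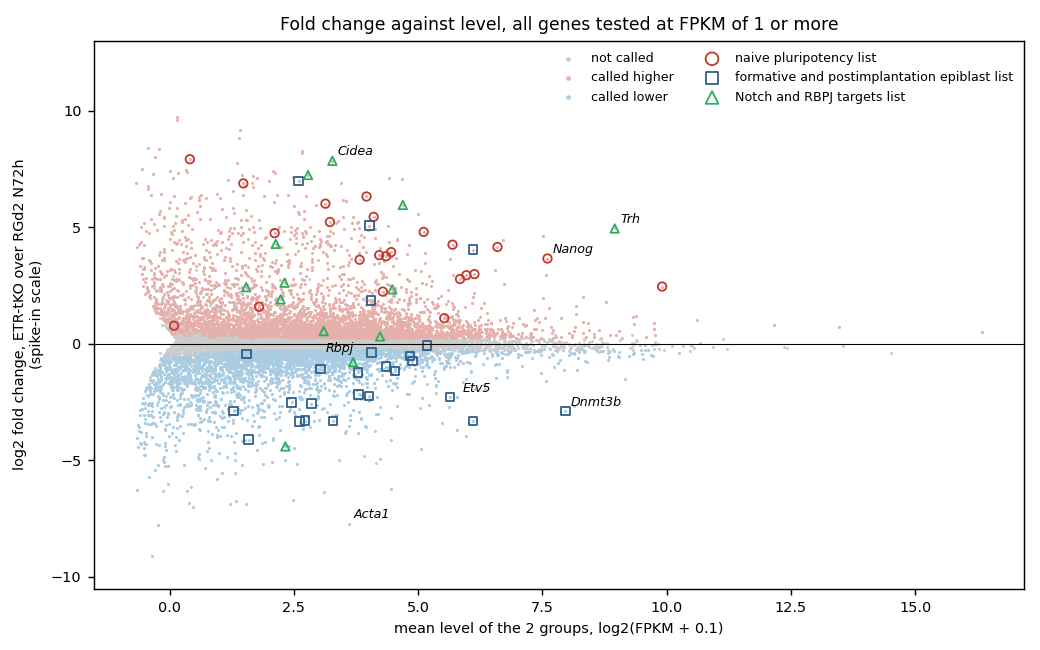
Log2 fold change of ETR-tKO over RGd2 N72h (vertical axis) against mean level (horizontal axis, log scale) for the tested genes with a mean FPKM of at least 1, with called genes coloured by direction. The 4381 higher and 2909 lower genes span the whole range of levels, with *Nanog* and *Trh* high above 0 and *Dnmt3b* and *Acta1* far below. *Cidea* is plotted at its fitted value, but at most 3 counts per parental library leave its fold change without an estimate.

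The circuit of naive factors was higher in ETR-tKO almost throughout. Of 23 naive pluripotency genes, 22 were called higher in ETR-tKO, none was called lower, and the median change was 3.80 (3.80 also with *Spic*, which had at most 3 counts in each parental library, set at its bound). *Nanog* stood at 366, 353 and 349 FPKM in the mutant lines and at 29.6, 31.8 and 34.2 in RGd2 N72h (3.66 ± 0.11, adjusted p = 2.34e-26). Its level was alike across the 3 lines and near the 328 FPKM of 2ip5. *Esrrb*, an orphan nuclear receptor of the circuit, stood at 85.6, 107 and 99.2 against 6.4, 5.1 and 6.0 (4.25 ± 0.13, adjusted p = 7.46e-27). For *Tfcp2l1*, a direct target of STAT3, the values were 53.9, 74.8 and 69.9 against 2.45, 2.9 and 2.77 (4.80 ± 0.16, adjusted p = 6.13e-26). Both lay within 2-fold of their means in 2ip5, 105 and 81.7 FPKM.

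Among the Kruppel-like factors, *Klf4* showed the largest contrast, at 29.6, 35.8 and 34.5 FPKM against 0.945, 0.859 and 0.826 (5.45 ± 0.17, adjusted p = 1.35e-26). *Klf2*, a factor stabilised when MEK is inhibited, stood at 41.6, 34.4 and 36.5 against 3.25, 3 and 3.19 (3.75 ± 0.24). *Klf5* differed less, at 24.5, 35.2 and 34.4 against 6.96, 6.81 and 8.78 (2.24 ± 0.16). Of these 3, *Klf4* exceeded its 2ip5 mean of 12.4 FPKM by more than 2-fold. *Tbx3*, a T-box factor, stood at 13.7, 20.5 and 19.7 against 0.477, 0.377 and 0.718 (5.22 ± 0.19), and *Nr5a2*, a nuclear receptor, at 19, 16.5 and 15.7 against 0.339, 0.243 and 0.305 (6.01 ± 0.15). *Tcl1*, a coactivator of AKT, reached 27.9, 32.1 and 31.4 against 0.353, 0.372 and 0.515 (6.32 ± 0.20). *Zfp42*, which encodes REX1, stood at 164, 192 and 188 against 12, 11.4 and 11.5 (4.15 ± 0.13), one allele of the gene being that of the reporter.

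The remaining members named here spanned a wide range. *Sox21*, a SOX factor, stood at 3.69, 6.4 and 5.94 FPKM against 0.0245, 0.0328 and 0.0744, above its 2ip5 mean of 0.579 FPKM (6.88 ± 0.33, and 7.71 without library 9). *Dppa5a*, a KH-domain protein, was the most abundant, at 1530, 1652 and 1588 against 343, 300 and 347 (2.45 ± 0.11). *Gbx2*, a homeobox factor, differed less, at 3.67, 5.72 and 5.38 against 1.64, 1.69 and 2.16 (1.59 ± 0.19), and *Fgf4* the least of those called, at 56.8, 61.8 and 61.4 against 33.5, 29 and 33.1 (1.10 ± 0.12). *Dppa3*, a maternal factor that guards methylation marks, was the member not called, at 2.51, 0.304 and 0.615 against 0.833, 0.769 and 0.749 (0.77 ± 0.49, adjusted p = 0.195). Line 13 alone held the high value, and without it the estimate was -0.48. By mean level, 18 of the 23 genes lay within 2-fold of 2ip5, 3 above and 2 below (*Dppa3* and *Tdh*). Of all 12338 genes, 10944 lay within 2-fold of 2ip5, 1025 above and 369 below. Against N16h, 10706 of all genes lay within 2-fold, 1159 above and 473 below. Such counts in the lists below are to be read against these.

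**Figure D2:**
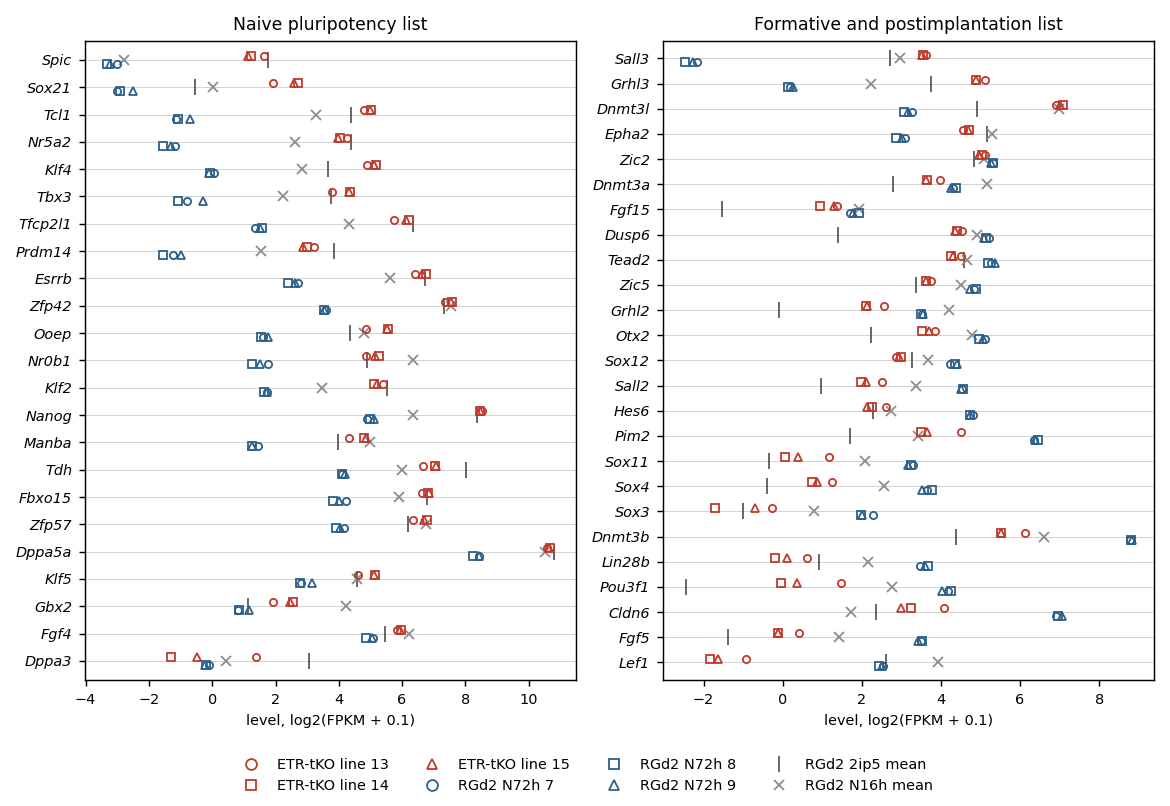
FPKM of naive (left) and formative (right) genes in each library on a log axis, with ETR-tKO lines and RGd2 N72h libraries as separate points and the means of 2ip5 and N16h as reference marks. The 3 ETR-tKO lines sit above the parental libraries for *Nanog*, *Esrrb* and *Klf4* and below them for *Pou3f1*, *Fgf5* and *Dnmt3b*.

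Genes shared by naive and later pluripotent cells differed less. Of 15 general pluripotency genes, 12 were called higher and 1 lower, with a median of 0.63. *Pou5f1*, which encodes OCT4, was close to equal, at 402, 420 and 388 FPKM against 350, 335 and 344 (0.42 ± 0.09, adjusted p = 0.000181). *Sox2*, its partner on DNA, differed far more, at 173, 178 and 179 against 35.1, 31.8 and 35 (2.56 ± 0.12, adjusted p = 1.01e-20). *Lin28a*, which blocks let-7 maturation, was the member called lower, at 101, 78 and 77.7 against 186, 195 and 183 (-0.97 ± 0.13, adjusted p = 5.26e-08). *Utf1* did not pass the test (-0.32 ± 0.16, adjusted p = 0.101), although its 118 to 132 FPKM in ETR-tKO lay below the 165 to 192 FPKM of RGd2 N72h, and scaling by gene counts or TMM made it a call.

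Genes of the formative and early postimplantation epiblast were mostly lower. Of 25, 19 were called lower and 4 higher, with a median of -1.23. *Pou3f1*, a POU factor of the formative state, stood at 2.66, 0.875 and 1.19 FPKM against 18, 18.8 and 16.3 (-3.31 ± 0.24, adjusted p = 5.38e-15). *Fgf5*, the classical marker of the postimplantation epiblast, stood at 1.24, 0.82 and 0.819 against 11.3, 11.4 and 10.6 (-3.34 ± 0.30, adjusted p = 1.83e-12). *Otx2*, which redirects OCT4 to new enhancers, differed less, at 14.4, 11.5 and 12.9 against 34.7, 31.2 and 33.5 (-1.18 ± 0.12, adjusted p = 3.57e-11). None of the 3 was at its naive level: their 2ip5 means were 0.0838, 0.286 and 4.62 FPKM, and in all 3 the mutant lines lay above them.

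The SOX factors *Sox3*, *Sox4* and *Sox11* of this list were lower, by log2 fold changes of -2.88 ± 0.36, -2.56 ± 0.15 and -2.52 ± 0.18. *Lef1*, a TCF/LEF factor, stood at 0.43, 0.18 and 0.22 FPKM against 5.72, 5.27 and 5.64 (-4.11 ± 0.21, adjusted p = 5.13e-20), and below its means of 6.02 in 2ip5 and 15.2 in N16h. *Lin28b*, the paralog of *Lin28a*, stood at 1.44, 0.777 and 0.987 against 10.9, 12.7 and 12.1 (-3.30 ± 0.19). *Cldn6*, a tight junction claudin, stood at 16.6, 9.3 and 7.89 against 120, 124 and 134 (-3.31 ± 0.20), and *Pim2*, a survival kinase, at 22.6, 11.3 and 12.5 against 81.8, 87.1 and 82.9 (-2.28 ± 0.15). *Fgf15* (-0.43 ± 0.21, adjusted p = 0.0908) and *Zic2* (-0.07 ± 0.14, adjusted p = 0.691) did not pass the test.

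The other 4 called members were higher. *Sall3*, a zinc finger factor, stood at 12.2, 11.6 and 11.5 FPKM against 0.121, 0.0815 and 0.108 (6.98 ± 0.20, adjusted p = 4.09e-27). *Grhl3*, a Grainyhead factor of surface epithelia, stood at 34.5, 29.7 and 29.4 against 1.03, 1.01 and 1.1 (5.07 ± 0.17), while its paralog *Grhl2* was lower (-1.08 ± 0.16). *Dnmt3l* reached 119, 136 and 129 against 9.48, 8.24 and 8.95 (4.04 ± 0.16), and *Epha2*, a receptor kinase, 23.4, 26.1 and 25.4 against 8.38, 7.23 and 8.02 (1.85 ± 0.11). These 4 averaged 7.76, 4.61, 127 and 39.1 FPKM in N16h, so their parental levels at 72 h lay below those at 16 h. In 2ip5, *Grhl3*, *Dnmt3l* and *Epha2* averaged 13.4, 30.2 and 35.6 FPKM. *Grhl3* was thus higher in 2ip5 than in N16h, and *Epha2* was near its N16h level. Against 2ip5, 13 of the 25 genes were at least 2-fold higher in ETR-tKO, 11 within 2-fold and 1 below (median 1.14). Against N16h, 2 were above, 12 within and 11 below (median -0.85).

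Within the formative and naive lists, line 13 mostly lay on the formative side of its sister lines. It was the highest of the 3 lines in 22 of the 25 formative genes (median 0.43 on the log2 scale above the mean of lines 14 and 15) and the lowest in 17 of the 23 naive genes (median -0.25). Over all 12338 genes it was highest in 5294 and lowest in 4834, with a median of 0.01. Other lists were skewed as well. Line 13 was highest in 17 of 20 ERK feedback and immediate early genes and in 17 of 23 oxidative phosphorylation genes. It was lowest in 17 of 22 integrin and focal adhesion genes. In whole profiles it was the nearest of the 3 lines to 2ip5, to N16h and to RGd2 N72h alike. Line 13 also had the highest *Etv5* and the lowest *Tcf7l1* and *Rbpj* FPKM. The lines share ancestors in different ways, and the part of ancestry or clone in these values was not tested.

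The DNA methylation enzymes split. Of 11 genes, 6 were called higher and 5 lower. *Dnmt3b*, a de novo methyltransferase, stood at 69.2, 45.8 and 45.7 FPKM against 436, 443 and 455 (-2.88 ± 0.13, adjusted p = 2.79e-21), and was among the most abundant lower genes. *Dnmt3a* differed little, at 15.7, 12.4 and 12.3 against 19.5, 20.6 and 19 (-0.38 ± 0.12, adjusted p = 0.00908), and its call was lost without library 8 (adjusted p = 0.0639). Their cofactor *Dnmt3l* moved the other way, as given above. Of the TET enzymes, which oxidise 5-methylcytosine, *Tet2* stood at 14.1, 18.4 and 16.9 against 1.42, 1.36 and 1.41 (3.75 ± 0.14) and *Tet1* at 28.4, 38.3 and 39.7 against 19.6, 20.4 and 19.6 (1.02 ± 0.14), whereas *Tet3* was lower (-0.47 ± 0.14). *Prdm14*, a repressor of the de novo enzymes in naive cells, stood at 9.25, 7.89 and 7.21 against 0.326, 0.243 and 0.401 (4.75 ± 0.18).

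Targets of Notch and RBPJ were mostly higher in the lines mutant for *Rbpj*. Of 18 genes, 13 reached a mean FPKM of 1, of which 11 were called higher and 2 lower, with a median of 2.43 (2.43 also with *Cidea* at its bound). Part of this list was assembled with values of *Rbpj* mutant libraries of the series in view, so its direction is not independent evidence. *Id3*, an inhibitor of basic helix-loop-helix factors, stood at 58, 48.6 and 44.9 FPKM against 1.11, 0.87 and 0.818 (5.96 ± 0.19, adjusted p = 8.27e-26). Its relatives *Id1*, at 11.6, 5.84 and 7.16 against 1.44, 1.77 and 1.37 (2.62 ± 0.29), and *Id4*, at 6.78, 8.84 and 8.71 against 0.308, 0.601 and 0.511 (4.28 ± 0.22), were higher too. The Id genes are also targets of BMP signalling.

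The classical Notch targets of the list, and its member *Gadd45g*, differed to unequal degrees. *Hey1*, a repressor, stood at 3.78, 4.82 and 5.34 FPKM against 0.74, 1.01 and 1.16 (2.43 ± 0.19), and *Nrarp*, a feedback regulator of Notch, at 7.65, 6.34 and 7.17 against 2.36, 2.08 and 1.99 (1.91 ± 0.19). *Hes1* differed little, at 8.79, 10.2 and 9.5 against 7.92, 7.25 and 7.14 (0.54 ± 0.14, adjusted p = 0.00159). *Gadd45g*, a stress-response gene, was lower, at 0.8, 0.132 and 0.148 against 10.5, 8.98 and 9 (-4.40 ± 0.33, and -5.81 without line 13), and so was *Dtx1*, an E3 ligase of the pathway, at 9.29, 8.16 and 8.57 against 16.9, 15.4 and 18.6 (-0.79 ± 0.12).

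Higher genes of the list also included 4 outside the classical set. *Nrp2*, a receptor for semaphorins and VEGF, stood at 11.6, 14.9 and 13.9 FPKM against 0.141, 0.0684 and 0.0933 (7.24 ± 0.21, adjusted p = 4.09e-27). *Trh*, the prohormone of thyrotropin-releasing hormone, was among the most abundant transcripts of the mutant lines, at 1161, 838 and 868 against 33.6, 33.5 and 37.6 (4.95 ± 0.20, adjusted p = 1.27e-22). *Cidea*, a lipid droplet protein, stood at 16.4, 20.8 and 19.9 against 0.12, 0.107 and 0.0662, where at most 3 counts per parental library leave its fold change without an estimate. *Prickle1*, a planar polarity protein, stood at 45, 31.1 and 32.9 against 6.39, 7.95 and 9.83 (2.34 ± 0.16). Each of these 4 lay above both references, whose means were 2.03 and 0.708 FPKM for *Nrp2*, 156 and 32.2 for *Trh*, 1.43 and 0.544 for *Cidea* and 0.956 and 0.422 for *Prickle1*. Over the list, 12 of 13 genes were at least 2-fold above N16h and 7 at least 2-fold above 2ip5. Of all 12338 genes, 1159 and 1025 were. Since part of the list was assembled with *Rbpj* mutant values in view, neither these counts nor the levels of the 4 genes are independent evidence.

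**Figure D3:**
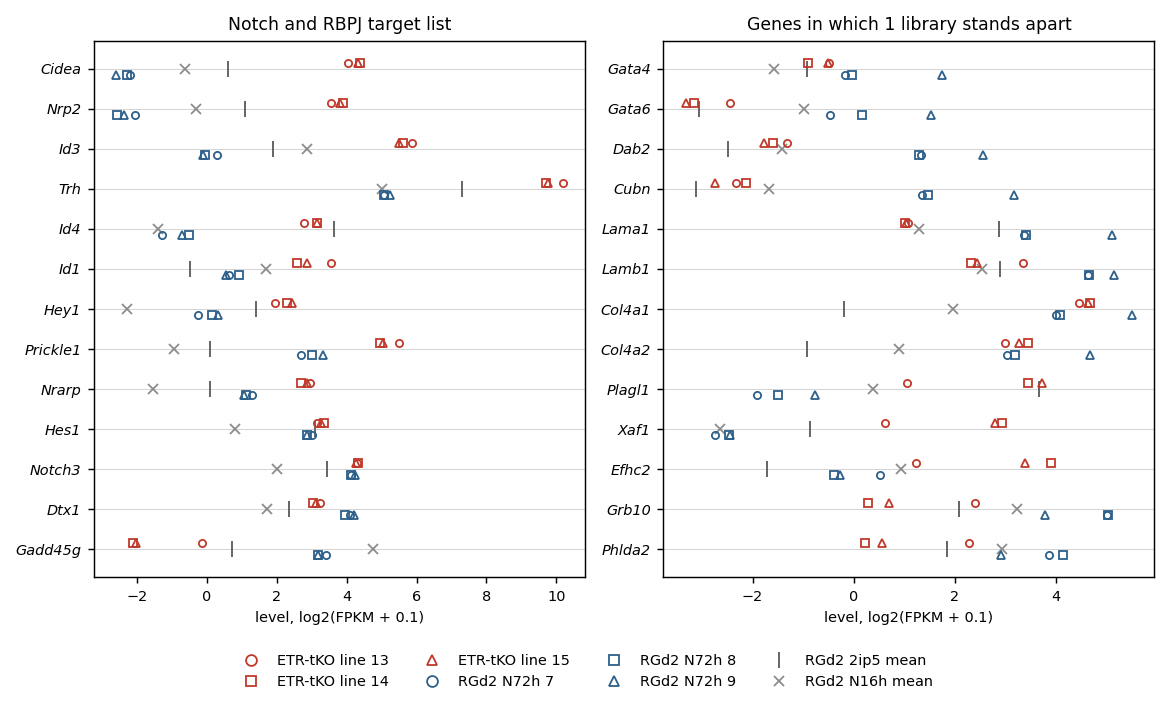
FPKM of Notch and RBPJ target genes, and of genes for which 1 library stood apart, in each library on a log axis, with the means of 2ip5 and N16h as reference marks. *Trh*, *Nrp2* and *Cidea* are high in all 3 ETR-tKO lines, whereas *Plagl1* and *Grb10* set line 13 apart and *Gata6* and *Cubn* set RGd2 N72h library 9 apart.

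Promoters were searched, on both strands, for the RBPJ core TGGGAA, the ETS site ACCGGAAG and the TCF site CTTTGAT, none of which contains another. Windows ran from 250 bases before to 50 after each start in RefSeq (GRCm38.p6), and 9024 of the 12338 genes had one, with 11520 starts between them. The RBPJ core was in 23.7% of promoters of higher genes, 22.3% of those of lower genes and 22.8% of all. The ETS site was in 5.17%, 2.51% and 4.9%, and the TCF site in 2.48%, 1.92% and 2.42%. Of the 16 naive genes with a promoter in the table, *Nanog* and *Esrrb* held the RBPJ core. Of the 9 such genes in the Notch list, *Id4* and *Gadd45g* held it, and *Nrp2* held the TCF site. A match is a description of the sequence and not of binding. The promoters of *Nanog*, *Id4* and *Nrp2* are printed because these genes hold a motif and are described above, in gene orientation, 5′ to 3′, with the motif in capitals.
Nanog, chr6:122707239-122707538 (+), RBPJ core on the opposite strand: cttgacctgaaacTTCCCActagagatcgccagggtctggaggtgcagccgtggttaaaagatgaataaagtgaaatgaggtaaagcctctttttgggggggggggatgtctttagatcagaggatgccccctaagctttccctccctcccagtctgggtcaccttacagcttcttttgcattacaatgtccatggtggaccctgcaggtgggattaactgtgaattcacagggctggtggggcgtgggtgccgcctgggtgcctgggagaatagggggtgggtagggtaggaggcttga
Id4, chr13:48260866-48261165 (+), RBPJ core on the opposite strand: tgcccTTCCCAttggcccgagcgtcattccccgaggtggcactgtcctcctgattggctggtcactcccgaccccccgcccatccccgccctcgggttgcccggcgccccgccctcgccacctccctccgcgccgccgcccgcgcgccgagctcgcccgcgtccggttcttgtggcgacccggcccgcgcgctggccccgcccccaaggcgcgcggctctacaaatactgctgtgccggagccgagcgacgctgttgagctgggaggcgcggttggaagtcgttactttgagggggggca
Nrp2, chr1:62703067-62703366 (+), TCF site: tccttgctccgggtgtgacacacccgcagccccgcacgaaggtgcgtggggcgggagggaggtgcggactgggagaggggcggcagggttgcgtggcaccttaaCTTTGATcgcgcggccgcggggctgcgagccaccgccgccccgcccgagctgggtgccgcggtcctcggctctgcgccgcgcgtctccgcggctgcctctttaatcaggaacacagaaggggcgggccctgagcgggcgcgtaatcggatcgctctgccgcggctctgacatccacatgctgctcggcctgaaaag
A second annotated start of *Nanog*, with its window at chr6:122707315-122707614, held none of the 3 motifs.

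The Notch receptors and ligands did not share a direction. Of 11 genes at a mean FPKM of 1 or more, 3 were called higher and 5 lower, with a median of -0.54. *Notch4* stood at 2.72, 3.79 and 3.68 FPKM against 0.184, 0.224 and 0.21 (4.23 ± 0.18), while *Notch2* stood at 5.46, 5.74 and 5.63 against 12.1, 12.2 and 12 (-0.93 ± 0.11). The most abundant receptor, *Notch3*, was nearly equal (0.31 ± 0.13, adjusted p = 0.0466) and not called under TMM or gene-count scaling, nor without line 14, line 15 or any one RGd2 library. Of the ligands, *Dll1* stood at 0.622, 0.413 and 0.67 against 5.1, 4.24 and 4.85 (-2.86 ± 0.21), and *Dll3*, which does not activate Notch in trans, at 0.76, 0.421 and 0.506 against 3.85, 2.93 and 3.19 (-2.37 ± 0.32). *Jag1* was higher, at 9.34, 7.09 and 7.24 against 3.67, 4.1 and 3.61 (1.23 ± 0.15), and *Jag2* lower (-0.83 ± 0.18). *Lfng*, a glycosyltransferase that modifies the receptors, was lower (-1.75 ± 0.29).

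ERK feedback genes were expressed in both groups. Of 20 at a mean FPKM of 1 or more, 11 were called higher and 7 lower, with a median of 0.49. *Etv4*, the PEA3 paralog of *Etv5*, stood at 70.1, 64.8 and 63 FPKM against 11, 10.2 and 13 (2.71 ± 0.12, adjusted p = 2.79e-21), and *Etv1*, the remaining member of the group, at 4.15, 4.51 and 4.68 against 1.47, 1.72 and 1.33 (1.75 ± 0.13). *Spry4*, an inhibitor of receptor kinase signalling, stood at 22.5, 20.4 and 19.9 against 5.03, 5.32 and 6 (2.11 ± 0.13). In 2ip5, where MEK is inhibited, *Etv4* and *Spry4* averaged 0.353 and 0.0388 FPKM. *Dusp6*, an ERK phosphatase, was slightly lower, at 23.2, 21 and 20.4 against 36.9, 34.9 and 33.9 (-0.53 ± 0.12), and *Spry1* more so, at 2.06, 1.85 and 1.7 against 9.83, 10.7 and 10.4 (-2.29 ± 0.17). Over the list, 13 of 20 genes were at least 2-fold above 2ip5 and 7 within 2-fold, while 16 lay within 2-fold of N16h.

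Immediate early factors of the list diverged. *Egr1* stood at 5.97, 3.58 and 4.1 FPKM against 2.15, 2.41 and 1.86 (1.27 ± 0.24) and *Fos* at 2.21, 1.91 and 1.48 against 0.672, 0.398 and 0.502 (2.01 ± 0.35). *Jun*, the partner of FOS in AP-1, was lower, at 0.671, 0.243 and 0.335 against 10.4, 10.9 and 10.8 (-4.47 ± 0.30, adjusted p = 3.22e-16). Of 7 FGF ligands and receptors at this level, 3 were called higher and 2 lower, *Fgf4* and *Fgf5* being given above.

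The list of Wnt targets and TCF/LEF factors was divided too, with 4 of 9 genes called higher and 4 lower. Its median was 0.11, equal to that of all genes. The higher genes were *Axin2*, *Notum*, *Ccnd1* and *Apcdd1*, and the lower genes included *Tcf7l1*, itself a targeted gene. *Axin2*, a feedback inhibitor of beta-catenin, stood at 3.64, 4.77 and 4.49 FPKM against 1.44, 1.34 and 1.58 (1.74 ± 0.15), and *Notum*, a secreted Wnt deacylase, at 9, 11.4 and 11.6 against 0.444, 0.337 and 0.587 (4.65 ± 0.22). Both were below their 2ip5 means of 18.2 and 30.6 FPKM, where GSK3 is inhibited. Among the TCF/LEF factors, *Tcf7* was lower like *Lef1* and *Tcf7l1*, at 8.07, 5.39 and 5.77 against 12.3, 12.9 and 14.4 (-0.87 ± 0.13). No gene of the list was 2-fold above 2ip5 and 4 of 9 were 2-fold below it.

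Receptors of the LIF pathway were higher. *Lifr* stood at 21.6, 22.2 and 22.6 FPKM against 3.36, 3.19 and 4.03 (2.83 ± 0.13, adjusted p = 1.8e-21), and *Il6st*, its signalling partner gp130, at 15.8, 19.4 and 18.4 against 4.27, 3.94 and 4.33 (2.29 ± 0.14). *Socs3*, the STAT3-induced inhibitor of this receptor pair, was lower, at 1.24, 1.36 and 1.24 against 3.73, 3.65 and 3.53 (-1.32 ± 0.26). Of the 13 genes of the pathway, 6 were called higher and 3 lower (median 0.33).

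Of 22 *Nodal* and BMP pathway genes, 13 were called higher and 4 lower (median 0.42). *Nodal* stood at 48.1, 47.1 and 47.8 FPKM against 8.96, 7.86 and 8.13 (2.70 ± 0.11, adjusted p = 8.65e-23). Its inhibitors *Lefty2*, at 20.4, 19.5 and 19.5 against 3.19, 2.65 and 2.67 (2.99 ± 0.20), and *Lefty1*, at 19.1, 18.5 and 17.5 against 14.3, 14.3 and 12.2 (0.62 ± 0.16), were higher, and both were below their 2ip5 means of 260 and 124 FPKM. *Smad7*, an inhibitory SMAD, stood at 17.4, 23.7 and 18.5 against 4.18, 3.42 and 4.15 (2.53 ± 0.18).

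Epithelial genes were mostly lower in ETR-tKO. Of 16 cadherin and epithelial-state genes, 11 were called lower and 5 higher, with a median of -1.02. *Cdh1*, E-cadherin, stood at 63.9, 50.1 and 49.4 FPKM against 160, 175 and 166 (-1.44 ± 0.12, adjusted p = 1.72e-13). *Cdh3*, P-cadherin, stood at 5.4, 1.53 and 1.64 against 20.1, 18.6 and 20.2 (-2.61 ± 0.23, and -3.40 without line 13). *Epcam*, at 42.2, 25.9 and 24.4 against 127, 134 and 135 (-1.93 ± 0.16), and *Cldn7*, at 1.24, 0.874 and 0.978 against 37, 36 and 35.4 (-4.94 ± 0.25), were lower as well. *Vim*, a mesenchymal intermediate filament, was higher, at 48.1, 55.1 and 52.3 against 18.1, 17.1 and 15.4 (1.81 ± 0.13), as was *Zeb1*, a repressor of E-cadherin, at 2.76, 4.03 and 4.15 against 0.221, 0.358 and 0.224 (4.01 ± 0.19). In level, 13 of the 16 genes lay within 2-fold of 2ip5 and none below, against 10944 of all 12338 genes within 2-fold.

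Contractile genes were among those with the largest negative changes. *Stmn4*, a neuronal stathmin, and *Spon1*, an extracellular matrix protein, had larger estimates than these, but at most 3 counts per mutant library leave both without a fold change. *Stmn4* was listed at 0 in all 3 lines, against 0.873, 1.89 and 1.3 FPKM, and was not called by DESeq2 (adjusted p = 0.232). *Acta1*, skeletal actin, stood at 0.0313, 0.252 and 0.0563 FPKM against 23.5, 26.4 and 22 (-7.72 ± 0.48, and -8.89 without line 14). *Acta2* and *Actc1*, smooth muscle and cardiac actin, changed by -6.88 ± 0.80 (-7.67 without line 14) and -6.76 ± 0.53 (-7.68 without line 15). *Cnn1*, calponin, stood at 0.273, 0.113 and 0.127 against 15.9, 18.4 and 16.1 (-6.38 ± 0.37), and *Tagln*, transgelin, at 0.448, 0.409 and 0.668 against 41.3, 50.1 and 37.5 (-6.21 ± 0.28). *Myl9*, a myosin light chain, stood at 3.4, 1.6 and 2.33 against 67, 67.2 and 57.5 (-4.51 ± 0.27). In 2ip5 and N16h, *Acta1*, *Cnn1* and *Tagln* averaged below 1 FPKM, so these genes were high in RGd2 N72h and not in the other 3 conditions.

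*Acta2*, *Tagln* and *Thy1* were also the fibroblast and feeder genes at a mean FPKM of 1 or more, and all 3 were called lower in ETR-tKO. Of the other fibroblast genes, *Col1a1* and *Col1a2* were at most 0.12 FPKM in every library, and *Dcn* was at 0 in ETR-tKO and at 0.317 to 0.501 FPKM in RGd2 N72h. The summed level of the list was 2.14 to 2.93 FPKM in ETR-tKO and 50.6 to 63.8 in RGd2 N72h. In RGd2 N72h its main part was *Tagln*, one of the contractile genes given above. The part of such cells in the actin values was not tested.

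Adhesion genes were mixed. Of 22 integrin and focal adhesion genes, 9 were called higher and 8 lower, with a median of 0.22. *Itga1*, a collagen receptor subunit, stood at 13.3, 12 and 12.6 FPKM against 0.264, 0.302 and 0.262 (5.71 ± 0.19, adjusted p = 1.05e-25), and above its means of 0.504 in 2ip5 and 1.07 in N16h. *Itga9* stood at 8.59, 12.9 and 11.7 against 1.27, 1.29 and 1.22 (3.33 ± 0.16). *Itgb1*, the common beta subunit, was lower, at 22.6, 23.2 and 22.8 against 57.5, 61.9 and 55.5 (-1.17 ± 0.12), as was *Flna*, an actin crosslinker, at 111, 117 and 116 against 194, 205 and 192 (-0.60 ± 0.11).

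Of 15 basement membrane genes, 8 were called higher and 3 lower (median 0.40). *Fn1*, fibronectin, stood at 59.1, 90.1 and 86.9 FPKM against 19.3, 17.6 and 17.9 (2.30 ± 0.14), and *Nid1*, nidogen, at 16.6, 20.7 and 19 against 3.15, 3.17 and 4.45 (2.56 ± 0.15). *Lama1*, a laminin chain, was lower, at 2, 1.91 and 1.95 against 10.2, 10.6 and 34.4 (-3.06 ± 0.49, and -2.23 without library 9), and *Lamb1* stood at 10, 4.9 and 5.3 against 24.5, 25.1 and 35.4 (-1.91 ± 0.28). The collagen IV genes did not pass the test: *Col4a1* stood at 21.8, 25.4 and 24.5 against 15.8, 16.8 and 45.3, and *Col4a2* at 7.84, 10.8 and 9.49 against 8.04, 8.96 and 25.2. Without library 9, their estimates moved from 0.06 to 0.73 and from -0.41 to 0.33.

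Library 9, the clonal RGd2 culture, also stood apart in endoderm genes. Of 17 endoderm markers, 12 were tested, 7 reached a mean FPKM of 1, and 5 were called lower and 1 higher. *Gata6* stood at 0.0829, 0.0121 and 0 FPKM against 0.625, 1.01 and 2.77 (-5.19 ± 0.97). It missed the FPKM minimum without library 9, where its estimate was -4.32, and the estimate was -7.64 without line 13. *Gata4* stood at 0.61, 0.436 and 0.599 against 0.785, 0.878 and 3.24, and its call (-1.43 ± 0.59, adjusted p = 0.0389) was lost without library 9 (-0.41, adjusted p = 0.637), without any one ETR-tKO line and with DESeq2 (adjusted p = 0.146). *Cubn*, a receptor of absorptive endoderm, stood at 0.0983, 0.13 and 0.0483 against 2.45, 2.67 and 8.84 (-5.52 ± 0.87, and -4.65 without library 9), and *Dab2*, its endocytic adaptor, at 0.301, 0.232 and 0.193 against 2.42, 2.33 and 5.75 (-3.68 ± 0.59). The summed level of the list was 35.0, 39.2 and 51.6 FPKM in libraries 7, 8 and 9 and 8.38 to 9.68 in ETR-tKO, with *Lrp2*, at 26 to 30.6 FPKM in the parental libraries, as its main part. *Cxcr4* was the member called higher (2.86 ± 0.40). The part of endoderm cells in the laminin and collagen values was not tested.

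Markers of other lineages were few. Of 24 primitive streak and mesoderm genes, 20 were tested and 3 reached a mean FPKM of 1. *Eomes*, a T-box factor of streak and trophoblast, stood at 5.72, 11 and 9.44 FPKM against 0.503, 0.54 and 0.631 (4.13 ± 0.24), above its 2ip5 mean of 2.64. *Wnt8a* stood at 6.89, 2.88 and 2.83 against 0.133, 0.678 and 0.103 (4.29 ± 0.39, with 5.38 without library 8 and 3.67 without library 9). *Mixl1* was at most 0.264 FPKM in each of the 6 libraries. Of 26 neural genes, 7 reached the level, with 4 called higher and 3 lower. In level, 5 of these 7 were at least 2-fold above 2ip5 in ETR-tKO and 2 within 2-fold (median 1.51). Against N16h, 3 were at least 2-fold above and 4 within. *Ncam1*, a neural adhesion molecule, stood at 16.7, 26 and 23.8 against 2.24, 2.27 and 2.09 (3.53 ± 0.19), *Pax6* at 2.43, 2.22 and 2.18 against 0.0993, 0.149 and 0.105 (4.49 ± 0.27), and *Nes*, nestin, at 9.3, 9.06 and 8.72 against 43.8, 49.7 and 44.2 (-2.17 ± 0.17). The means of *Nes* were 3.43 FPKM in 2ip5 and 1.4 in N16h, below its levels in both groups. *Sox1*, the defining early neural factor, was at 0.254 to 0.633 FPKM in all 6 libraries and not called.

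Of 7 trophectoderm genes, 3 were called higher and 4 lower. In level, 6 of the 7 lay within 2-fold of 2ip5 in ETR-tKO and 1 above (median 0.21). Against N16h, 5 were at least 2-fold above and 2 within. *Tfap2c*, a factor shared with naive cells, stood at 26.3, 16.2 and 16 FPKM against 0.631, 0.559 and 0.635 (5.16 ± 0.19), and *Tead4* at 5.66, 9.22 and 8.15 against 0.904, 0.728 and 1.44 (3.03 ± 0.20). *Elf3*, an epithelial ETS factor, stood at 23.5, 23.4 and 23.9 against 4.3, 5.1 and 5.5 (2.42 ± 0.14), below its 2ip5 mean of 36.4 FPKM. The keratins of simple epithelia were lower, with *Krt18* at 6.82, 7.49 and 5.87 against 114, 120 and 119 (-3.95 ± 0.20, adjusted p = 1.03e-19) and *Krt8* at 6.85, 8.55 and 7.69 against 54.5, 59.1 and 60.4 (-2.73 ± 0.19). *Ascl2*, a bHLH factor of the placental lineage, was also called lower, at 0.756, 0.238 and 0.391 against 1.69, 0.884 and 0.712 (-0.99 ± 0.41, adjusted p = 0.0409). The groups overlapped in *Ascl2*, and the call was lost without line 14, line 15 or library 7. *Cdx2*, a defining factor of the lineage, was at most 0.0822 FPKM in each library. Of 12 two-cell-like genes, 1 reached a mean FPKM of 1, *Eif1a* (0.64 ± 0.12), while the *Zscan4* genes were at most 0.347 FPKM.

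Glycolysis genes were more often called lower than higher, whereas nuclear-encoded respiration genes differed little in level. Of 21 glycolysis genes, 12 were called lower and 5 higher, with a median of -0.31. *Ldha*, the lactate dehydrogenase subunit of glycolytic cells, stood at 81.5, 64 and 63.7 FPKM against 472, 485 and 524 (-2.65 ± 0.13, adjusted p = 6.87e-20), and below its means of 229 in 2ip5 and 240 in N16h. *Ldhb*, the other subunit, was higher, at 340, 257 and 245 against 84, 81.8 and 80.8 (1.94 ± 0.16, adjusted p = 4.24e-13). The glucose transporters differed likewise, with *Slc2a1* at 88.5, 86.1 and 83.1 against 285, 300 and 296 (-1.60 ± 0.13) and *Slc2a3* at 270, 211 and 202 against 85.5, 90.4 and 108 (1.44 ± 0.13). *Slc16a3*, a lactate exporter, was lower, at 14, 16 and 15.6 against 54.9, 56.8 and 58.2 (-1.71 ± 0.15).

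Of 23 nuclear-encoded genes of oxidative phosphorylation, 13 were called higher, none lower and 10 not called. The median was only 0.27, against 0.11 for all genes, and all 23 lay within 2-fold of 2ip5. With TMM or gene-count scaling, 2 of them were called lower, and without library 7 the count of higher calls was 8. *Cox7a1*, a tissue-specific subunit of cytochrome oxidase, had the widest contrast, at 14.3, 6.29 and 6.36 FPKM against 3.91, 3.5 and 3.22 (1.53 ± 0.25). Transcripts of the mitochondrial genome were higher, such as *mt-Nd1* at 1767, 2001 and 2192 against 1163, 1077 and 1142 (1.01 ± 0.11) and *mt-Cytb* at 748, 916 and 986 against 483, 413 and 427 (1.19 ± 0.11).

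**Figure D4:**
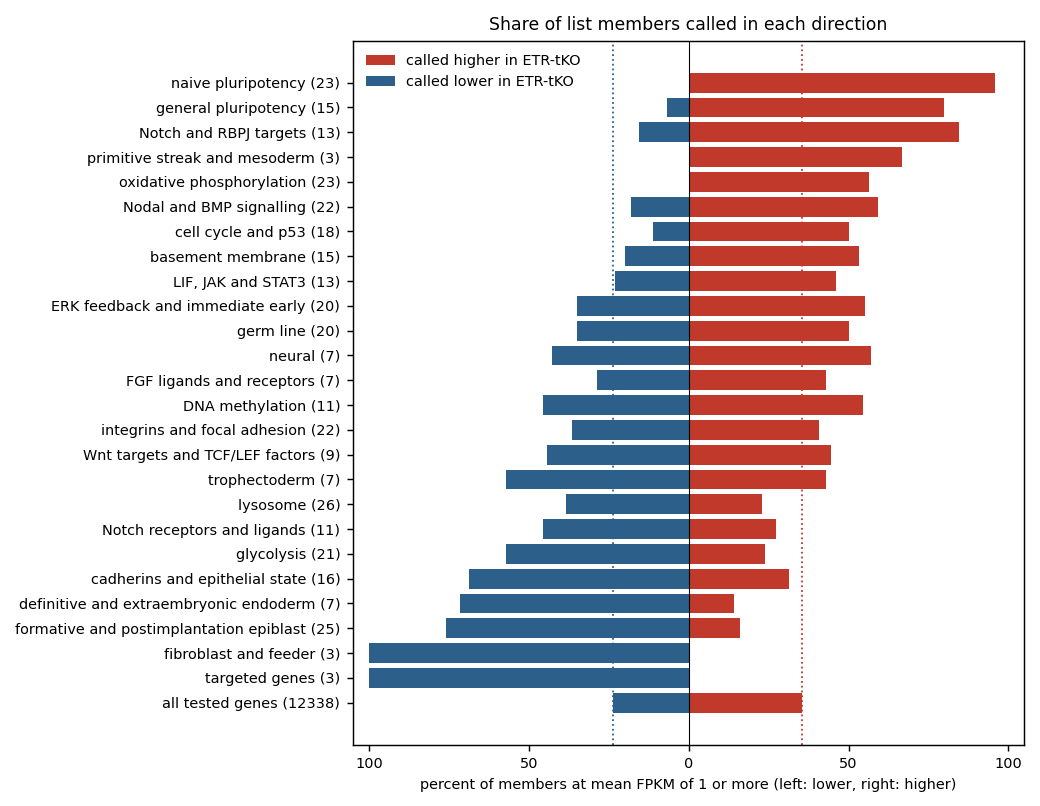
Percent of genes called higher and lower in ETR-tKO for each gene list, among members with a mean FPKM of at least 1, beside the 35.5% higher and 23.6% lower of all such genes. Naive genes are almost all on the higher side (22 of 23) and formative genes mostly on the lower side (19 of 25).

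Germ line genes split. Of 20, 10 were called higher and 7 lower (median 0.54). *Rhox5*, an X-linked homeobox gene, stood at 413, 299 and 329 FPKM against 12.2, 12.2 and 21.6 (4.64 ± 0.17, adjusted p = 5.32e-24), and above its means of 30.7 in 2ip5 and 69.5 in N16h. *Ifitm1*, an interferon-inducible gene of early germ cells, stood at 200, 196 and 202 against 11.5, 8.66 and 10.4 (4.47 ± 0.19). *Prdm1*, which encodes BLIMP1, stood at 1.99, 2.15 and 2.22 against 0.283, 0.224 and 0.336 (3.06 ± 0.27), and *Nanos3* at 5.05, 1.42 and 1.91 against 0.151, 0.202 and 0.334 (3.65 ± 0.43, and 2.95 without line 13). The lower genes included *Ddx4*, a germ granule helicase, at 1.95, 1.94 and 1.83 against 9.57, 8.71 and 8.77 (-2.06 ± 0.17), *Sycp3*, of the synaptonemal complex, at 7.67, 4.75 and 5.07 against 42.8, 38.1 and 44.1 (-2.66 ± 0.19), and *Mael*, of the piRNA pathway, at 1.75, 2.19 and 2.2 against 25.3, 21.8 and 20.5 (-3.28 ± 0.17).

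Of 26 lysosome genes, 6 were called higher and 10 lower (median -0.13). *Hexa*, a subunit of the enzyme hexosaminidase, was lower, at 9.4, 9.03 and 9.02 FPKM against 30, 28.3 and 36.5 (-1.61 ± 0.11), as was *Ctsl*, a cysteine protease, at 8.3, 9.15 and 7.99 against 25.9, 25.1 and 30.6 (-1.50 ± 0.16). Of 18 cell cycle and p53 genes, 9 were called higher and 2 lower (median 0.32), with *Trp53*, the p53 gene itself, at 73.6, 76.2 and 74.9 against 33.2, 34.5 and 38.8 (1.26 ± 0.11).

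Most genes differed by less than 2-fold between ETR-tKO and each of 2ip5, N16h and RGd2 N72h. Of the 12338 genes, 10944 had a mean FPKM in ETR-tKO within 2-fold of 2ip5, 10706 within 2-fold of N16h and 9567 within 2-fold of RGd2 N72h. The FPKM minimum was set on ETR-tKO and RGd2 N72h, so genes reaching it only in 2ip5 or N16h are left out. Among the 4381 higher genes, 3772 were within 2-fold of 2ip5, 530 above and 79 below. Among the 2909 lower genes, 2458 were within 2-fold, 245 above and 206 below. RGd2 N72h itself was within 2-fold of 2ip5 in 3268 of the higher genes, 2-fold or more below it in 1017 and above it in 96. In the lower genes, RGd2 N72h was within 2-fold of 2ip5 in 1558, above it in 1338 and below it in 13.

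**Figure D5:**
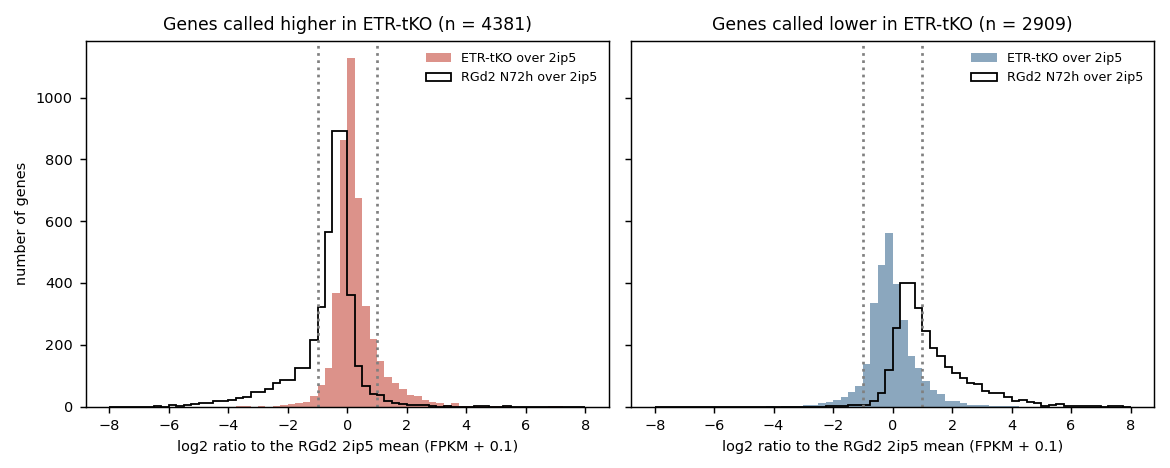
Distribution of log2 ratios of mean FPKM to 2ip5 for the genes called higher and the genes called lower in ETR-tKO. The horizontal axis is the log2 ratio and the vertical axis the number of genes. The medians of the FPKM ratios are 0.14 and -0.11 for ETR-tKO and -0.41 and 0.90 for RGd2 N72h. These ratios are not on the spike-in scale on which the genes were called. Gene counts per spike-in differ between the groups and 2ip5, so the medians would shift on that scale.

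Distances between whole profiles gave the same order. In rlog values, lines 13, 14 and 15 lay 63.96, 68.65 and 67.08 from 2ip5, 69.24, 72.85 and 71.31 from N16h, and 85.76, 94.04 and 92.77 from RGd2 N72h on average. Distances within ETR-tKO were 19.86 to 34.02 and within RGd2 N72h 24.4 to 25.12. Each line was therefore closer to 2ip5 than to the parental cells in its own medium, and farther from 2ip5 than from its sister lines.

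A smaller set of genes set ETR-tKO apart from both references. At a 4-fold margin over both 2ip5 and N16h, 66 higher genes were above and 14 lower genes below. The 8 higher genes of largest change included *Nrp2*, *Cidea*, *Amdhd1*, *Pramef17* and *Pla2g7*. *Amdhd1*, an enzyme of histidine breakdown, stood at 3.92, 5.85 and 5.35 FPKM against 0, 0 and 0.0212, with means of 0.146 in 2ip5 and 0.967 in N16h. *Pramef17*, of the PRAME family, stood at 1.04, 2.69 and 2.35 and was listed at 0 in all 3 parental libraries, and *Pla2g7*, a lipoprotein-associated phospholipase, stood at 2.45, 1.54 and 1.62 against 0.032, 0 and 0.00884. At most 3 counts per parental library leave these without a fold change.

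On the lower side, the genes below both references included *Tcf7l1* and *Lef1*. *Bahcc1*, a chromatin reader, stood at 0.394, 0.414 and 0.462 FPKM against 9.5, 9.78 and 10.3 (-4.36 ± 0.18, adjusted p = 4.81e-23), with means of 4.19 in 2ip5 and 7.01 in N16h. *Mgmt*, a DNA repair methyltransferase, stood at 0.175, 0.227 and 0.239 against 4.64, 4.87 and 3.97 (-4.22 ± 0.24). *Bhlhe40*, a circadian repressor, stood at 0.557, 0.419 and 0.215 against 7.3, 7.37 and 8.73 (-4.12 ± 0.20), and its paralog *Bhlhe41* was lower too (-6.99 ± 0.41, and -7.71 without line 13). *Igf2bp3*, an RNA-binding protein, stood at 2.98, 3.25 and 3.31 against 20.8, 20.6 and 20.6 (-2.52 ± 0.14).

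The 3 lines were not interchangeable. Lines 14 and 15 differed by at least 2-fold in 103 of 11382 genes, and line 13 differed from them in 270 and 209. The RGd2 N72h libraries differed from each other in 156 to 178 of 11523 genes. Among the called genes most variable between lines, *Plagl1*, an imprinted zinc finger gene, stood at 1.99, 10.8 and 13.1 FPKM against 0.166, 0.255 and 0.486 (4.93 ± 0.45, and 5.60 without library 9). *Xaf1*, an apoptosis regulator, stood at 1.44, 7.54 and 6.81 against 0.0495, 0.0798 and 0.0822 (6.38 ± 0.45), and *Efhc2* at 2.25, 14.9 and 10.3 against 1.33, 0.659 and 0.724 (3.56 ± 0.52). *Grb10*, an imprinted growth inhibitor, stood at 5.21, 1.11 and 1.51 against 32, 32.7 and 13.7 (-3.16 ± 0.62, and -4.08 without line 13), and *Phlda2*, also imprinted, at 4.76, 1.07 and 1.36 against 14.4, 17.6 and 7.47 (-2.24 ± 0.57, and -3.18 without line 13). In each of these 5 genes line 13 lay nearest to the parental level, and in *Plagl1*, *Grb10* and *Phlda2* library 9 lay nearest to the mutant level.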

How the data were processed

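RNA-seq libraries of ETR-tKO cells in N2B27 and of RGd2 cells 72 h after 2i withdrawal were analysed. Per the authors, Trim Galore removed adapters, TopHat2 placed the reads on mm10 (GRCm38) and the ERCC sequences using Gencode M14 models, and featureCounts tallied unique primary hits by strand. The deposited values are raw counts per gene and per spike-in. The labels name polyA RNA as the molecule, whereas the protocol describes ribosomal depletion.

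Libraries were scaled by the median ratio of the 52 spike-ins that no library lacked. All 32 libraries were fitted in one model with edgeR 4.0.16 (glmQLFit and glmQLFTest, two-sided, R 4.3.3), and p-values were adjusted by Benjamini-Hochberg over the 18892 of 51826 genes that passed filterByExpr. FPKM was computed from the deposited counts and gene lengths. Symbols came from an annotation table that left 193 IDs unnamed. Means of 2ip5 and N16h were compared with a pseudocount of 0.1 FPKM. Distances used rlog values of DESeq2 1.42.0. The script was first tested on simulated data with known changes. Where all libraries of a group held at most 3 counts, no fold change is given. Nothing in the labels says that libraries of a group are separate experiments, beyond the clonal lines named. The p-values therefore measure the spread between libraries within groups, pooled over all 32 libraries of the fit. Libraries were treated as independent, although some mutant lines share an ancestor and some parental libraries are of the same line.

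Groups came from the labels. The comparison and its gene lists were chosen with earlier results of these data known. Genes named are list members at a mean FPKM of 1, and in each direction the 12 called genes of largest change, the 12 most abundant with at least 2-fold change, the 8 beyond both references, and the 8 most variable between lines, without Gm and Rik models. Their miRNA hairpin rows, which can overlap longer transcripts, and other members are not described one by one, and some listed genes are not reported here. Alternatives were TMM, gene-count and total spike-in scaling, DESeq2, other filters, a fold minimum, a fit of the 6 libraries alone, single-strand motif searches and leaving out each library.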

Additional observations from a re-analysis of the deposited data

How the results depend on the processing

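The 4381 higher and 2909 lower genes became 1559 and 1251 when a log2 fold change of at least 1 was also asked for. Higher calls made up 60.1% of all calls, against 49.1% with gene-count scaling and 51.9% with TMM, where 4028 and 4198 of the higher genes and all 2909 lower genes were kept. Leaving out 1 library gave 3807 to 4479 higher and 2521 to 2893 lower genes, or 56.8% to 63.3% higher. DESeq2, the other filters, the total spike-in count and a fit of the 6 libraries alone changed these counts by less than 1.5 times. Searching the gene strand alone gave the RBPJ core in 12.4% of higher, 12.7% of lower and 12.4% of all promoters, the ETS site in 2.48%, 1.03% and 2.36%, and the TCF site in 1.3%, 0.961% and 1.27%, as a search of fewer bases must.

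Of 166 genes checked, 149 to 166 kept direction and call under each alternative. Estimates that changed sign were those of *Dppa3* (-0.48 without line 13 to 1.15 without line 14), *Col4a2* (-0.71 without library 7 to 0.33 without library 9) and *Col4a1* (-0.22 without library 7 to 0.73 without library 9, -0.055 with TMM and -0.074 with gene-count scaling). Of the 3, *Dppa3* was called without line 14 (adjusted p = 0.0469) and *Col4a2* without the low-count filter (adjusted p = 0.00584), and the cause was not tested. *Utf1* and *Fgf15* became calls with TMM, gene-count scaling or the 6 libraries alone. No paired analysis was possible because the groups share no replicate numbers or lines. Depth limits genes with at most 3 counts in every library of a group, for which only levels are given. Genotype and time in N2B27 cannot be told apart, and each mutant line is 1 clone.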
